A study of Mus musculus with 6 samples.

Results

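Gata2, Gata3, Gata4, Gata5 and Gata6 encode zinc finger transcription factors, and all probe sets annotated to these 5 genes were read on the 6 arrays of a mouse forelimb bud series. The rule found 10 probe sets for the 5 genes, of 18193 genes with a probe set of their own on the array. RNA came from CD1 embryos at E10.5, when the forelimb bud is a mound of mesenchyme under ectoderm, and the bud was cut into proximal and distal parts. The control embryos were untreated and carry the genotype label Ring1A-/-, although the sample descriptions call them WT. The double knockout (dKO) embryos were untreated and labelled Prx1-Cre; Ring1A-/-; Ring1Bfl/fl. The third condition (RA) was WT embryos given all-trans retinoic acid, 100 mg/kg by gavage of the mother, at E10.25. By the genotype labels, control and dKO share the loss of Ring1A, and RA embryos keep it, so the treatment and that label cannot be told apart in a difference between RA and control. Prx1-Cre acts in limb mesenchyme, so the ectoderm, vessels and blood of a dKO bud keep Ring1B. The labels used here do not say whether an array held 1 embryo or a pool. There was 1 array for every pairing of a condition with a part, so no difference between arrays has a replicate check.

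GATA factors bind DNA at the letters for which they are named. Gata2 and Gata3, with Gata1, are known from blood, and Gata2 also from endothelium and Gata3 from skin, sympathetic neurons and the kidney ducts. Gata4, Gata5 and Gata6 act in the heart, the gut endoderm and the mesothelium, and Gata6 is known in the limb bud as a repressor of Shh. RING1A and RING1B are the ubiquitin ligases of Polycomb repressive complex 1, which holds regulators of other tissues silent and occupies promoters rich in CG dinucleotides. Retinoic acid acts on the proximal limb and body wall.

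Promoter windows of 3 of the 5 genes, Gata2, Gata3 and Gata5, are shown from RefSeq (build GRCm38.p6). No filter on CG content was applied to them. The selection left out a whole chromosome, so a gene not shown may still have a window there. The 250 bases before each start site are printed in the direction of transcription, with CG dinucleotides in capitals. Gata2 has 2 annotated start sites, and the bases printed before them lie at chr6:88193641-88193890 and chr6:88198414-88198663 on the plus strand. Those of Gata3 lie at chr2:9878601-9878850 and those of Gata5 at chr2:180334680-180334929, both on the minus strand.
Gata2, upstream start: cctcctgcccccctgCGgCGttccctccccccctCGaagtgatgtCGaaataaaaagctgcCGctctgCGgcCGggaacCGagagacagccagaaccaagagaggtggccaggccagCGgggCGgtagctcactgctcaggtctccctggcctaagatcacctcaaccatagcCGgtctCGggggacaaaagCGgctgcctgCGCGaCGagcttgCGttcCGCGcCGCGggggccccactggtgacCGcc
Gata2, downstream start: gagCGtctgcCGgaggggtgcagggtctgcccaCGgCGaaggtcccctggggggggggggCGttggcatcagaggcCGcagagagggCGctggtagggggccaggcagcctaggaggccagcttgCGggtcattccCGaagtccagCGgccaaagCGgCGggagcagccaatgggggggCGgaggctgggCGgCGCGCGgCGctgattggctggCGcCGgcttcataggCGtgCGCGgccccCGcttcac
Gata3: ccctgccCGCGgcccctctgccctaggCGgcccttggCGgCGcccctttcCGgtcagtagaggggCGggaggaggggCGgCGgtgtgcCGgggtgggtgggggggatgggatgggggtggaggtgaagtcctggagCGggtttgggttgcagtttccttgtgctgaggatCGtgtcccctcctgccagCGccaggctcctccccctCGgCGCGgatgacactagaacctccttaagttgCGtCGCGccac
Gata5: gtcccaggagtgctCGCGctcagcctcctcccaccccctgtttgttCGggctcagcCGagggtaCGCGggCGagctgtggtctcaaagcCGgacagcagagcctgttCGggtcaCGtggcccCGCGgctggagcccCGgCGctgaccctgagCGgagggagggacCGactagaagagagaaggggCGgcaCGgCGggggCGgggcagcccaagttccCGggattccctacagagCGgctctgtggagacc
Windows of 300 bases, from 250 before to 50 after a start, held 32 and 29 CG dinucleotides for Gata2, 22 for Gata3 and 26 for Gata5. The median over all 32851 such windows was 7, and the upper quartile 20. All 4 windows lay above that quartile, Gata3 only just, at percentile 76.9. They were selected for display, so this is a description only, and Polycomb occupancy of these genes was not tested. The core to which GATA factors bind was searched on both strands as the letters AGATAA or, alternatively, AGATAG, besides the versions TGATAA or, alternatively, TGATAG. They occur in 29.8% of all windows, in 1 place in the Gata3 window, 37 bases after the start, and nowhere in the Gata2 and Gata5 windows. A match is a description of the letters only.

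Signal intensity is the MAS5 value of a probe set, on a linear scale. The median signal of an array, 59.5 to 76.1, was taken as its floor, since values below it cannot be ordered; a probe set under it is called at the floor, and a fold against it is a lower bound. The 2 RA arrays stand apart from the rest in sex-linked genes and a spike-in control. In a difference between RA and the other conditions, embryo sex as read from these genes and the spike-in cannot be told apart from the treatment. Xist had signals of 12.9 and 29.5 there and 3017 to 3688 on the other arrays, while the Y-linked Eif2s3y had 2783 and 3064 against at most 12.3. The BioB-3 spike-in control had 84.4 and 103 there, against 1105 to 1223 elsewhere. Across genes, which are not independent replicates, Pearson's r of the proximal RA array with any other was 0.927 to 0.951, that of the distal RA array 0.950 to 0.974, and that of the control pair 0.984. Ring1, which encodes RING1A, had signals of 245 to 419.8 on the RA arrays and 624 and 968 on the control arrays labelled Ring1A-/-, and Rnf2, for RING1B, 1887 to 2147 on all 6. The sources used here do not say where their probes lie in the deleted genes, so they check no label. The 8 limb mesenchyme markers, Prrx1, Tbx5 and Twist1 among them, were above the floor on all 6 arrays.

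**Figure D1:**
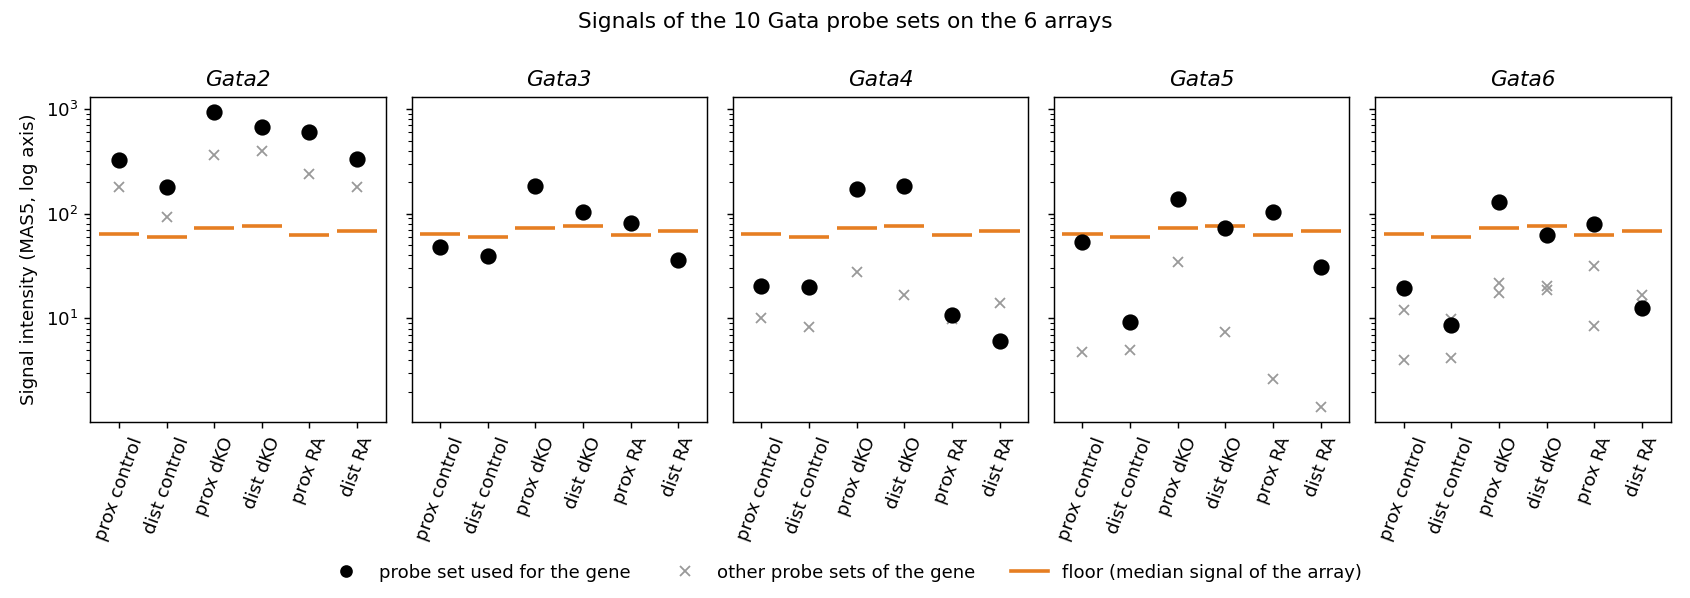
Signal intensity (log axis) of the 10 Gata probe sets on the 6 arrays, 1 point per array; filled circles are the probe set used for each gene, crosses its other probe sets, and orange lines the floor of each array. Gata2 lies above the floor everywhere, from 178.9 to 944, Gata4 only in the dKO arrays (170.3 and 182.1), and Gata5 and Gata6 only in the proximal dKO and proximal RA arrays.

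Gata2, the regulator of blood progenitors and endothelium, was the 1 member above the floor in control buds. Its probe set 1428816_a_at had signals of 329 in proximal and 178.9 in distal control, 944 and 673 in the dKO bud, and 604 and 333 after RA. Both dKO arrays were the highest and both control arrays the lowest of their part, with RA between them. Gata2 was 2.86-fold higher in dKO than in control proximally and 3.76-fold distally (log2 1.52 and 1.91). From the lowest signal to the highest, the order was distal control, proximal control, distal RA, proximal RA, distal dKO and proximal dKO. Proximal control and distal RA, next to each other, were 0.01 apart on the log2 scale, and proximal RA and distal dKO 0.15 apart. Both are less than the residual SD of 0.23 from a fit over all probe sets, which shrinks it toward that of other probe sets. The other 3 steps, 0.88, 0.86 and 0.49, were larger than it. This SD describes 1 array value, and a step between 2 arrays varies more, so the order is a description only.

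A second Gata2 probe set, 1450333_a_at, gave 179.5 and 93.9 in control, 363 and 395 in the dKO bud, and 239.5 and 181 after RA. It too placed dKO highest and control lowest in each part, at log2 1.01 proximally and 2.07 distally for dKO against control. The probe sets disagreed on the direction between the parts of the dKO bud. There the first was higher proximally by 0.49 and the second distally by 0.12, under its residual SD of 0.32, shrunk in the same way.

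Gata4, a factor of heart, gut endoderm and mesothelium, had a signal above the floor only in dKO. Its probe set 1418863_at gave 20.4 in proximal and 20.1 in distal control, 170.3 and 182.1 in the dKO bud, and 10.7 and 6.11 after RA. The control and RA values all lie below their floors and carry no order. Gata4 was thus at least 2.66-fold higher in dKO than in control proximally and at least 3.06-fold distally. The parts of the dKO bud differed by 0.10 on the log2 scale, with the distal one higher. The other Gata4 probe set, 1418864_at, was at the floor on all 6 arrays, with at most 27.8.

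Gata3, a factor of skin, sympathetic neurons and kidney ducts, was above the floor in both dKO parts and in the proximal RA bud. Its 1 probe set, 1448886_at, had signals of 48.3 and 39.2 in proximal and distal control, 182.5 and 104.9 in the dKO bud, and 81.9 and 36.1 after RA. In dKO it was at least 2.85-fold higher than in control proximally and at least 1.76-fold distally, and 0.80 higher in the proximal than in the distal part on the log2 scale. In proximal RA it was at least 1.28-fold higher than in control.

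Gata5 and Gata6, partners of Gata4 in heart and endoderm, were above the floor in the same 2 arrays, proximal dKO and proximal RA. Gata5, read with 1450126_at, had signals of 53.4 and 9.23 in proximal and distal control, 137.8 and 72.9 in the dKO bud, and 104.5 and 31.2 after RA. Gata6, read with 1425464_at, had 19.6 and 8.60 in control, 129.1 and 62.8 in the dKO bud, and 79.9 and 12.6 after RA. The distal dKO signals of 72.9 and 62.8 lie under that array's floor of 76.1, which is the highest of the 6. Against proximal control, Gata5 was at least 2.15-fold higher in proximal dKO and at least 1.63-fold in proximal RA, and Gata6 at least 2.02-fold and at least 1.25-fold. The other 3 probe sets of these genes were at the floor on all 6 arrays: 1450125_at of Gata5 reached at most 34.8, and 1425463_at and 1443081_at of Gata6 at most 18.7 and 31.7.

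**Figure D2:**
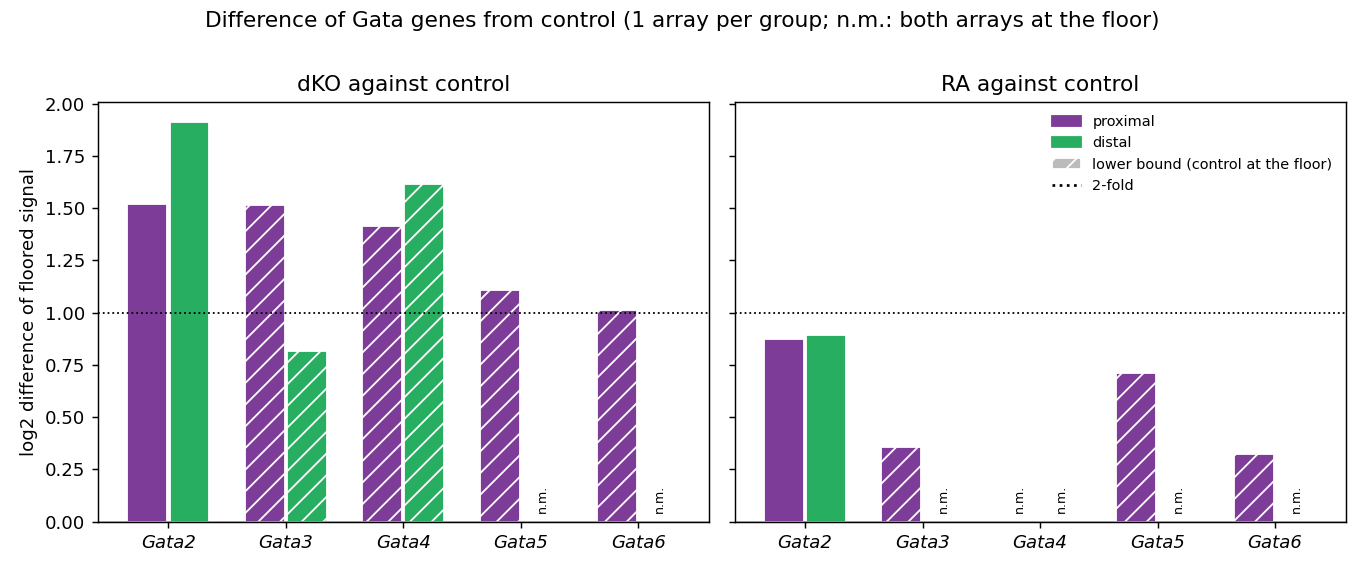
Log2 difference of each Gata gene from the control array of the same part, for dKO (left) and RA (right), in the proximal (purple) and distal (green) bud; hatched bars are lower bounds because control was at the floor, n.m. marks pairs with both arrays at the floor, and the dotted line is 2-fold. All 5 genes reach 2-fold in the proximal dKO bud, Gata2 and Gata4 also distally, and none in RA.

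Setting dKO against control addresses the removal of Ring1B from limb mesenchyme in embryos that, by label, already lack Ring1A. In the proximal bud all 5 Gata genes were 2-fold or more higher in dKO, where 4.07% of the 11580 genes compared were. Gata5 and Gata6 lie nearest the limit, at log2 1.11 and 1.01, and were under it with other scaling. In the distal bud Gata2 and Gata4 were 2-fold higher, 2 of the 3 members above a floor there, against 5.32% of 11646 genes. Gata3 was below that limit at 0.82, and Gata5 and Gata6 were at the floor in both distal arrays. A gene at the floor in control enters this comparison only by being higher in dKO. Of genes at the control floor, 29.8% reached 2-fold proximally and 41.4% distally; among the members they were 4 of 4 and 1 of 2. Gata2 and Gata4 were 2-fold higher in both parts, as were 2.74% of all 12147 genes tested.

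An additive model with terms for condition and part was fitted with limma to those 12147 genes. It has 2 residual degrees of freedom, and its residual is the disagreement between parts and conditions, so it asks whether an effect was alike in both parts and is not a replicate test. In it Gata2 rose in dKO by log2 1.71 (SE 0.24, adjusted p = 0.0208) and Gata4 by 1.51 (SE 0.18, adjusted p = 0.0124), higher in 2 of 2 parts each. They are 2 of the 5 members, where 2.21% of all genes rose and 0.115% fell; the other 4 besides Gata2 entered the fit only through arrays in which they are high, so the shares are not like for like. The p of Gata4 rests partly on the floors, at which 4 of its 6 values lie, which can make it too small. Gata3 just missed the threshold (1.17, SE 0.22, adjusted p = 0.0551), and Gata5 (0.73, adjusted p = 0.214) and Gata6 (0.68, adjusted p = 0.218) did not pass. The floor itself is 0.19 higher in the proximal and 0.36 in the distal dKO array than in control on the log2 scale, and the fitted values of genes at the floor contain that step.

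The 2-fold and limma calls both moved with the processing. Proximally, dKO against control was 0.92 for Gata5 and 0.82 for Gata6 with each array divided by its median. After quantile normalization it was 0.94 and 0.84, also under 2-fold. With a floor at 100 only Gata2 kept 2-fold there, and with the mean of all probe sets only Gata2 and Gata3. With no floor and a pseudocount of 16, all 5 genes kept it. With each array divided by its median, Gata2 had an adjusted p of 0.0804 in limma, and after quantile normalization 0.0633, with log2 effects of 1.44 and 1.68. A floor at a signal of 100 took Gata4 to an adjusted p of 0.0546. Without the 2 RA arrays, all 5 genes rose in limma, Gata2 with an adjusted p of 1.713e-05, Gata3 with 0.00201, Gata5 with 0.0391 and Gata6 with 0.0470, from 1 residual degree of freedom. Of these only Gata2 was above the floor in control; the other 4 genes are at it in both control arrays, and Gata5 and Gata6 in distal dKO too, so their effects contain the floor step and their p-values are no independent support. Over the 10 alternatives the adjusted p of Gata2 ran from 5.592e-07 to 0.0804, and over the 9 that could be run for Gata4 from 1.741e-12 to 0.0546. Both lowest values came from the fit with no filter on low signals. That fit draws its variance from genes at the floor on every array, so these values are no support.

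**Figure D3:**
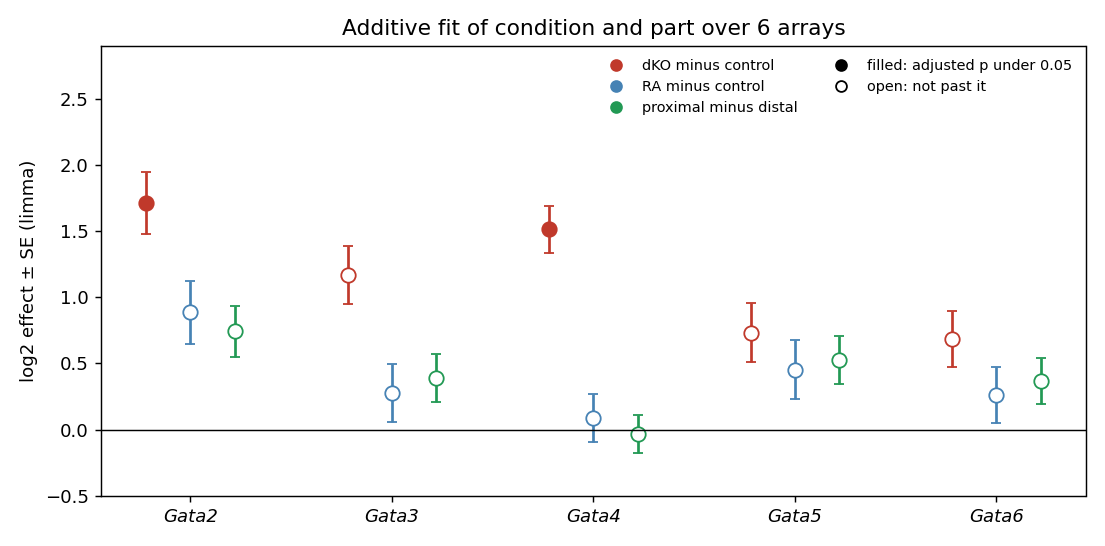
Log2 effects with standard errors from the additive limma fit over the 6 arrays, for dKO minus control (red), RA minus control (blue) and proximal minus distal (green); filled points passed an adjusted p of 0.05. Gata2 at 1.71 and Gata4 at 1.51 passed for dKO, and no Gata gene passed for RA or position.

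The comparison of RA with control uses the same control arrays. Gata2 was higher in RA by nearly the same amount in both parts, 1.83-fold proximally and 1.86-fold distally (log2 0.88 and 0.89). In limma this was 0.89 (SE 0.24, adjusted p = 0.172), which does not pass. In the distal bud the other 4 Gata genes were at the floor in both arrays. Proximally Gata5 differed by a bound of 0.71, Gata3 by 0.36 and Gata6 by 0.32, and Gata4 was at the floor. None of the members was 2-fold in either part, where 3.69% of genes were 2-fold higher proximally, 2.16% distally and 0.815% in both. In limma 0 of 5 passed for RA, with 1 (Gata2) at an unadjusted p under 0.05, as were 16.7% of all genes, of which 0.305% rose and 0.239% fell past the threshold.

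The direct comparison of dKO with RA needs no control array, though it also sets RA against the loss of both ligases. In the proximal bud Gata4 was higher in dKO by at least 1.44, Gata3 by 1.16, Gata6 by 0.69, Gata2 by 0.64 and Gata5 by 0.40 on the log2 scale. In the distal bud Gata4 was higher by at least 1.42, Gata2 by 1.02 and Gata3 by at least 0.62. Every difference with an array above its floor thus had dKO above RA. Gata4 was 2-fold or more higher in both parts, 1 of the 5 members, as were 4.01% of all genes tested. Gata5 and Gata6 were at the floor in both distal arrays.

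Between the parts of the bud, Gata2 read with 1428816_a_at was higher proximally in all 3 conditions, with log2 differences of 0.88 in control, 0.49 in the dKO bud and 0.86 after RA. The second Gata2 probe set gave 0.94, -0.12 and 0.41 in the same order, so the direction in dKO depends on the probe set, and the mean of both gave 0.18 there. Gata3, Gata5 and Gata6 were higher proximally wherever either part was above its floor. In dKO the proximal excess was 0.80 for Gata3 and at least 0.86 for Gata5 and 0.76 for Gata6. In RA it was at least 0.26, 0.62 and 0.23 in the same order. These RA values depend on the processing. With a floor at 100 they were 0.0, 0.06 and 0.0, and with the mean of all probe sets 0.26, 0.25 and -0.0006. With no floor and a pseudocount of 16 they were 0.91, 1.35 and 1.75. No member was 2-fold higher in either part, against 1.35% of genes higher proximally in control, 0.515% in dKO and 4.4% in RA. In limma 0 of 5 members passed for position, with 2 (Gata2 and Gata5) at an unadjusted p under 0.05, as were 9.52% of all genes, of which 0.0% passed. Gata2 had an effect of 0.74 (SE 0.19, adjusted p = 0.277), and without the 2 RA arrays 0.68 with an adjusted p of 0.0437.

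Other proteins with a GATA-type zinc finger were read from a list chosen with earlier results of these data known. In limma 0 of these 6 genes passed in either direction for dKO, for RA or for position. Gata1, the erythroid member of the family, gave 255 and 141.7 in control, 299 and 334 in the dKO bud, and 135 and 216 after RA, in the order proximal and distal. It was higher in distal dKO by 1.24 and in proximal dKO by 0.23. Trps1, a GATA-type repressor of cartilage and hair, had 2436 and 2567 in control, 1541 and 1674 in the dKO bud, and 1307 and 2493 after RA. Its signal was lower in dKO by a similar amount in both parts, log2 -0.66 and -0.62, but limma did not call it (-0.64, SE 0.23, adjusted p = 0.334). Gatad1, Gatad2a and Gatad2b, of which the last 2 encode subunits of the NuRD complex, differed from control by -0.44 to 0.44 in both conditions.

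Cofactors of GATA proteins were read in the same way. The list holds the FOG proteins Zfpm1 and Zfpm2, which bind GATA zinc fingers, and the LMO2, LDB1 and TAL1 complex of blood cells. Of its 13 genes, 12 were above the floor somewhere, and in limma 0 passed for dKO, RA or position. Zfpm1 gave 168 and 135.6 in control, 321 and 192 in the dKO bud, and 159 and 69.5 after RA. It was higher in dKO by 0.93 proximally and 0.50 distally (limma 0.72, SE 0.27, adjusted p = 0.354). Tal1, a partner of Gata1 and Gata2 in blood and endothelium, had 498 and 490 in control, 809 and 907 in the dKO bud, and 321 and 633 after RA, a difference of 0.70 and 0.89 for dKO. Lmo1 went the other way, from 770 and 1008 in control to 453 and 418 in the dKO bud, and 376 and 623 after RA.

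**Figure D4:**
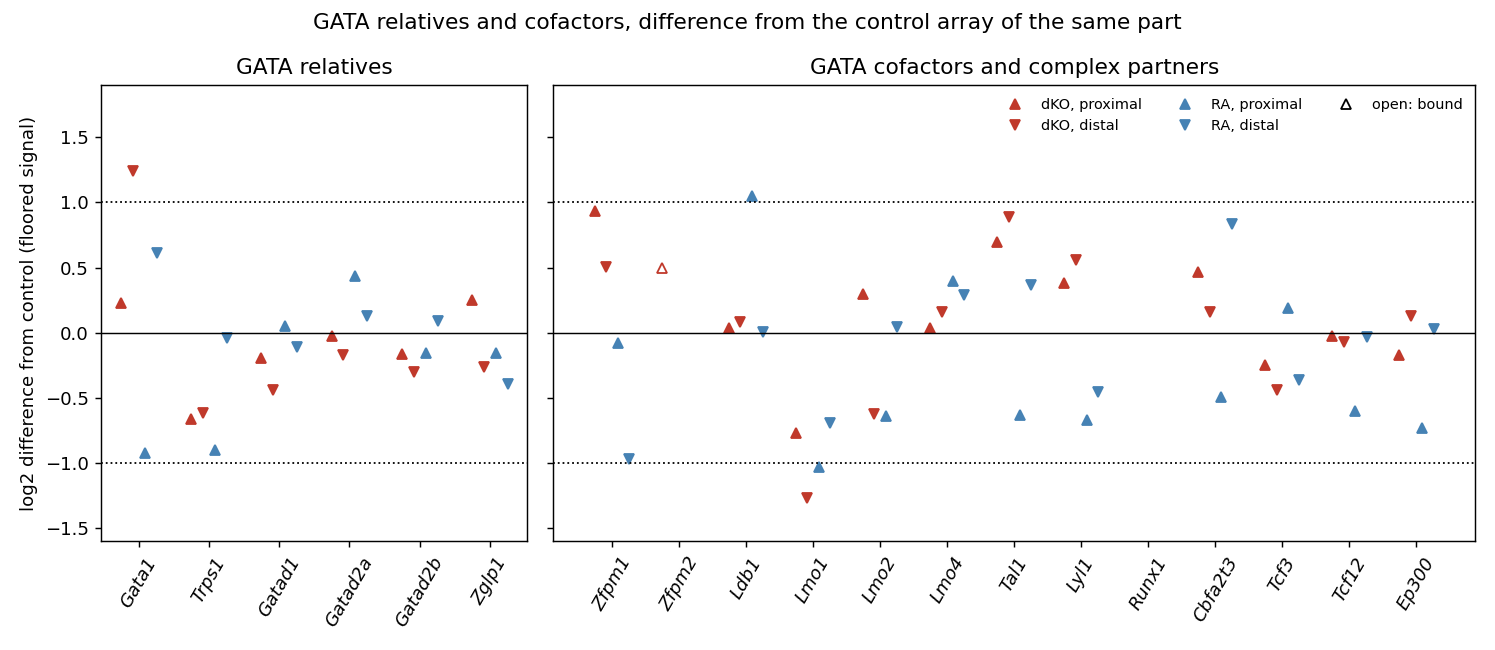
Log2 difference from the control array of the same part for 6 relatives (left) and 13 cofactors (right) of the Gata genes, in dKO (red) and RA (blue), proximal (upward triangles) and distal (downward); open symbols are bounds, and dotted lines 2-fold. Trps1 lies at -0.66 and -0.62 in dKO, and Runx1 has no point because it was at the floor on all 6 arrays.

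Markers of the cell types in which Gata genes are known were read on the same arrays. The labels describe whole bud parts, in which fewer cells of a type and less RNA per cell cannot be told apart. Endothelial markers, beside Gata2, summed to 3329 in proximal and 2471 in distal control, 4868 and 3497 in the dKO bud, and 4560 and 2602 after RA. The median difference of the 10 genes in dKO was 0.54 and 0.45, against 0.02 and 0.01 over all genes, with 1 of 10 at 2-fold in each part and 0 called by limma. Primitive erythroid markers, 8 genes, summed to 36280 and 34962 in control, 42642 and 39759 in the dKO bud, and 47938 and 41072 after RA. The globins Hbb-bh1, Hba-x and Hbb-y make up most of each sum. In proximal RA these globins were higher than in control, while Alas2, Klf1, Epor, Slc4a1 and Gata1 were lower. The median difference of the list was 0.32 and 0.57 in dKO, and -0.15 and 0.26 in RA. Of the 8 genes, Epor, the erythropoietin receptor, was 2-fold higher in both dKO parts (1.53 and 1.05; limma adjusted p = 0.0568). The 6 markers of megakaryocytes and mast cells summed to 1284 and 1470 in control, 1318 and 1761 in the dKO bud, and 876 and 1002 after RA, and the 6 of macrophages to 319 and 449, 435 and 453, and 513 and 739. The part of these cells in the Gata2 values was not tested.

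Markers beside Gata4, Gata5 and Gata6 were mixed. Of the 8 cardiac markers, 7 were at the floor on all 6 arrays, Nkx2-5, Tbx20, Tnnt2, Myh6 and Myh7 among them. The remaining gene, Myl7, was above the floor on 1 array, proximal dKO, with 73.4 against a floor of 73.0. The list summed to 147.3 and 117.9 in control, 366 and 263 in the dKO bud, and 213 and 119 after RA. These sums are almost all signal under the floor, so they carry no order. Of the endoderm markers, Foxa2 and Hnf4a were at the floor on all 6 arrays. Foxa1, a forkhead factor of gut and other epithelia, had signals of at most 6.24 in control and RA and of 131 and 257 in dKO, and rose in limma (1.57, SE 0.28, adjusted p = 0.0454). Like Gata4, it entered the fit only through the dKO arrays, and its other 4 values are floors, which can make that p too small. Afp and Cdx2 were 2-fold higher in both dKO parts, and Afp also had 265 in distal RA against 77.4 in distal control. The 7 endoderm genes on the array summed to 310 and 356 in control, 949 and 1534 in the dKO bud, and 222 and 571 after RA. Sox17, which is also in the endothelial list, contributed 196 and 87.4 in control, 361 and 202 in the dKO bud, and 99.5 and 79.9 after RA.

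Tcf21, a factor of the coelomic mesothelium and its derivatives, was at the floor on the same 4 arrays as Gata4, with 199 and 198 in dKO and at most 15.3 elsewhere. It rose in dKO in limma by 1.69 (SE 0.18, adjusted p = 0.00965), with the same limit as Gata4 and Foxa1, since 4 of its 6 values are floors. Wt1, another mesothelial factor, had 16.4 and 25.1 in control, 281 and 120.4 in the dKO bud, and 416 and 154 after RA. It was higher in both conditions and higher proximally than distally in each, and neither effect passed in limma (adjusted p = 0.0875 for dKO and 0.0709 for RA). The mesothelial genes Msln and Lrrn4 were at the floor on all 6 arrays. Upk3b, another mesothelial gene, had 17.8 and 109 in control, 148 and 156 in the dKO bud, and 19.6 and 74.8 after RA, higher in dKO by at least 1.21 proximally and 0.52 distally (limma 0.86, SE 0.22, adjusted p = 0.141). Tbx18, of proximal mesenchyme and epicardium, had 1678 and 660 in control, 769 and 976 in the dKO bud, and 265 and 283 after RA. It did not pass in limma for RA (adjusted p = 0.105) or for dKO (adjusted p = 0.987). The list of 6 summed to 1750 and 861 in control, 1460 and 1522 in the dKO bud, and 732 and 548 after RA. Tbx18 makes up most of the control sums, so they mainly follow that gene. The part of the list in the Gata values was not tested.

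Beside Gata3, the 11 surface ectoderm markers were all above the floor on all 6 arrays. The list summed to 11583 for proximal and 19688 for distal control, 13261 and 18701 in the dKO bud, and 11198 and 16966 after RA, higher distally in each pair. Gata3 was higher proximally in dKO and RA and at the floor in both control arrays. In both parts alike, 0 of 11 were 2-fold different between dKO and control, and limma called 0. Of the sympathoadrenal and neural markers, Phox2a, Th, Dbh and Sox10 were at the floor on all 6 arrays. The 8 genes on the array summed to 681 and 586 in control, 1379 and 1281 in the dKO bud, and 528 and 463 after RA. Nefl, a neurofilament, made up much of that difference with 220 and 142.9 in control and 709 and 762 in dKO, and rose in limma (2.05, SE 0.31, adjusted p = 0.0276). The nephric duct markers Pax8 and Ret were at the floor on all 6 arrays, and Lhx1 was higher in dKO by at least 0.90 and 0.73. Of the limb mesenchyme markers, Meox2 fell in dKO (limma -1.38, adjusted p = 0.0449) and in RA (-1.79, adjusted p = 0.0448), and the list summed to 23010 and 22240 in control, 21212 and 19255 in the dKO bud, and 14944 and 17352 after RA.

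Gata6 is known to hold Shh, the posterior signal of the limb bud, in check, so Shh and 7 genes in or beside its pathway were set beside it. Shh had signals of 130 and 1099 in proximal and distal control, 72.8 and 57.6 in the dKO bud, and 64.0 and 433 after RA. In the 2 proximal arrays with Gata6 above the floor, Shh was thus at 72.8 and 64.0, where the floors were 73.0 and 63.0. Distally, Gata6 was at the floor in all conditions while Shh ranged from 57.6 to 1099. Shh was at the floor in both dKO arrays. Its limma effect was -2.34 in dKO (adjusted p = 0.186) and -1.18 in RA (adjusted p = 0.406). Shh was 2-fold lower than control in both RA parts (-1.02 and -1.34), as was Grem1, the BMP antagonist that sustains the ridge, with 357 and 1208 in control and 80.9 and 483 after RA (-2.14 and -1.32). Gli1, a transcriptional target of Shh signalling, was 2-fold lower in both dKO parts (-1.06 and -1.72; limma adjusted p = 0.0926). Of the 8 genes, 0 passed for dKO, RA or position in limma. No correlation is given over these single arrays.

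The genes whose pattern over the 6 arrays was most like a member were sought for Gata2 and Gata3, the 2 members above the floor on at least 3 arrays. The measure was Pearson's r of log2 floored signal over 6 arrays, among 3251 genes above the floor on at least 3 arrays with a log2 range of 1 or more. For Gata2 these were Hlx (r = 0.984), a homeobox gene, Qprt (0.979), Gstt2 (0.976), Esrrg (0.970) and Adam23 (0.970). Hlx gave 96.5 and 75.9 in control, 194.5 and 177.1 in the dKO bud, and 147.2 and 112.0 after RA. Control was lowest, RA between and dKO highest in each part. Hlx was picked for its likeness to Gata2, so this shared order is no separate finding. For Gata3 they were Kcnk2 (0.998), Wscd2 (0.996), Rasl10b (0.996), Fam81a (0.985) and Shank3 (0.985). Kcnk2, a potassium channel, had 42.3 and 25.9 in control, 285 and 129.4 in the dKO bud, and 84.4 and 17.8 after RA. For Gata3 and Kcnk2 3 of the 6 values are floors, which these genes share by construction. With 6 points an r over 0.9 was reached by 91 candidates for Gata2 and 74 for Gata3, so the order among them is a description only.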

How the data were processed

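Transcript levels were measured on 6 one-colour Affymetrix arrays. The deposited values are MAS5 signal intensity on a linear scale, per the submitters' processing notes, which name MAS5; no source used here gives its version. Each array's mean signal is 499.9 after 2% of probe sets are trimmed at either end. The number of arrays limits the precision. Of 45101 probe sets, 34958 have 1 gene symbol, 932 several and 9211 no listed gene; 34754 matched the RefSeq table by gene ID.

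A gene's value is that of its probe set with the greatest mean log2 signal. Signals under an array's median were raised to it (the floor). Genes above it on at least 1 array were fitted with limma 3.58.1 (R 4.3.3) with condition and part as terms, a trended prior variance (4.64 prior degrees of freedom) and Benjamini-Hochberg adjustment; calls are at an adjusted p under 0.05 or at 2-fold. The fit code was run on simulated normal values with no floor, so that run does not check p-values of genes at the floor. "Rose" and "fell" are used only past the limma threshold. Samples were grouped by their titles. The members, lists and alternatives were chosen with earlier results of these data known. Genes of a list were named when 2-fold the same way in both parts or past the threshold, at most 5 a list; family members, cofactors and a few defining markers named besides were picked after their values were seen. Alternatives were the scaling, the floor, the filter, the probe set rule, the prior and leaving out a condition.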

Additional observations from a re-analysis of the deposited data

How the results depend on the processing

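Of the 5 genes, 2 rose in dKO as reported. The count was 1 with each array divided by its median, after quantile normalization, with a floor at 100 and with genes kept only when above the floor on at least 3 arrays, which leaves Gata2 and Gata3 in the fit; it was 5 with no filter on low signals and 5 without the 2 RA arrays. For RA the count went from 0 to 1 with no filter, and for position from 0 to 1 with no filter and to 1 without the 2 RA arrays. The fit with no filter draws its variance from genes at the floor on every array. The number of genes 2-fold higher in dKO than in control in both parts was 2, and 1 with a floor at 100, 1 with the mean of all probe sets and 5 with no floor and a pseudocount of 16. For dKO against RA it was 1, and 0 with a floor at 100, 0 with the mean of all probe sets and 2 with the pseudocount. The cause of these shifts was not tested where the construction does not give it. Over all genes, 269 rose and 14 fell in dKO as reported, 103 and 12 after division by the median, which moved the median effect by -0.27, and 80 and 7 after quantile normalization. For RA these counts were 37 and 29, 20 and 15, and 13 and 2. No called difference of a Gata gene changed sign under any alternative run. No paired analysis was possible because each group has 1 array and the labels number no replicates; bud part is already a term of the fit. A signal near the floor limits Gata3, Gata4, Gata5 and Gata6.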
